A study of Sus scrofa with 2 samples.

Results

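SPP1, VCAM1, SOX9, PROM1, DCDC2, ITGB8 and LCN2 are read in kidney studies as genes of injured or repairing tubule. These 7 genes, out of 31908 features in the count matrices, were followed through single-nucleus RNA-seq of pig renal cortex. They were picked by name, with earlier results of these data already known. The files carry 6 of them by symbol, and LCN2 was found through its gene identifier, ENSSSCG00000005638.

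The data came from slaughterhouse pig kidneys that were flushed, stored cold and then placed on a perfusion machine that raised the pressure in the glomerulus. A piece of cortex was frozen before perfusion began (unperfused, 1 library) and another after it had begun (perfused, 1 library). The labels give no animal, strain, age or sex, and whether both pieces came from the same kidney is not stated. Time on the machine, warmth and pressure cannot be told apart, and neither library represents a kidney that had escaped removal and cold storage. With 1 library per condition no test across samples was possible: the intervals below are 95% intervals that cover counting error only.

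After filtering, 6389 unperfused and 5421 perfused nuclei were kept, with medians of 3755 and 4383 unique molecular identifiers (UMIs, counted molecules) per nucleus. They formed 20 clusters, built without the 7 genes. Markers gave names to 12 classes. Along the nephron these were podocytes (PODO), proximal tubule (PT), the loop of Henle (LOH), the distal convoluted (DCT) and connecting (CNT) tubules, and the principal (PC) and type A and type B intercalated cells (IC-A, IC-B) of the collecting duct. The others were endothelium (EC), stroma (STROMA), immune cells (IMM) and cycling cells (CYCLING). Clusters 11, 13, 14 and 17 met no marker rule and are given by number. The 2 libraries shared 14 barcodes, 8 of them among kept nuclei. The IMM class numbered 307 nuclei of the unperfused and 896 of the perfused library, which moves any value taken over all nuclei. It held 12 of 17 immune markers but also 10 of 13 stromal ones, at mean log2 folds of 2.68 and 2.56. Its values are therefore not those of leukocytes alone.

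The genes stand for different sides of tubule repair. SPP1 encodes osteopontin, a secreted phosphoprotein, and LCN2 encodes neutrophil gelatinase-associated lipocalin, a secreted iron-carrier binding protein used as a urinary injury marker. VCAM1 is a surface adhesion molecule for leukocytes and ITGB8 is the beta subunit of the integrin that activates latent TGF-beta. PROM1 encodes prominin-1, a membrane protein of epithelial progenitors, SOX9 is a transcription factor switched on in regenerating tubule, and DCDC2 is a doublecortin-domain protein of the primary cilium.

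The 5 genes with at least 20 UMIs differed in how far they lay in the tubule of the pig cortex. These shares give location only, and whether the tubule was injured was not tested. DCDC2 had the largest share in named tubule classes, with 78.4% of its unperfused and 71.5% of its perfused UMIs. The unnamed clusters held another 18.5% and 25.5%. VCAM1 had the smallest share, with 43.3% of its unperfused and 19.1% of its perfused UMIs in named tubule. Classes outside the tubule held 48.7% and 70.2% of VCAM1 UMIs. For PROM1 the classes outside the tubule held 34.2% and 39.3%, for ITGB8 24.6% and 25.8%, and for SPP1 15.2% and 24.0%. The share of the genes' UMIs in each kind of class therefore differed widely before any comparison of the libraries. These shares were not set against those of all genes, and the makeup of the libraries differed. Of the UMIs of all genes, PT alone held 10122545 of 26691180 unperfused and 8257689 of 27107290 perfused. IMM held 687006 and 2561485.

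**Figure D1:**
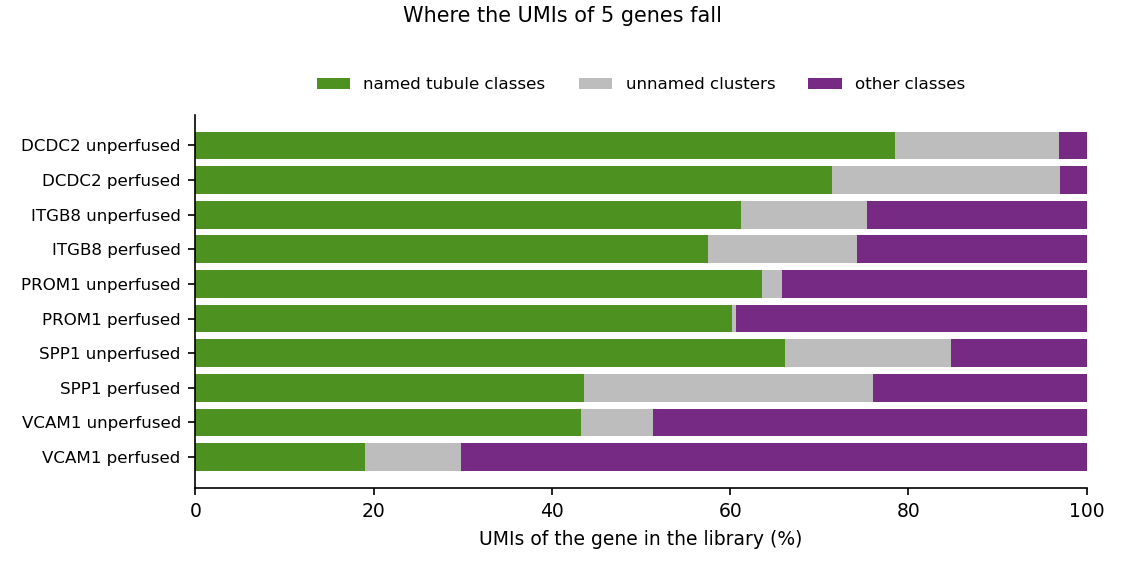
Percentage of each gene's UMIs (x axis) that fell in named tubule classes, in unnamed clusters and in other classes, 1 bar per gene and library. DCDC2 bars are mostly named tubule, and the perfused VCAM1 bar is 70.2% other classes.

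Levels are given as CPM, the UMIs of a gene in a class per 1000000 UMIs of that class and library. They may be compared between classes but not between genes. A ratio of the perfused over the unperfused library is reported as called when it passed 1.5-fold and its counting interval lacked 0, among genes with at least 20 UMIs in both libraries together. Over all nuclei, 20.4% of all genes were called in either direction by that rule, as were 0 of the 5 members with enough UMIs. SPP1 had a log2 ratio of −0.20 (−0.40 to 0.01), from 15.5 to 13.5 CPM. VCAM1 stood at 8.39 and 9.67 CPM (0.20, −0.06 to 0.47), and ITGB8 at 180 and 160 CPM (−0.17, −0.23 to −0.11). DCDC2 was at 232 and 278 CPM (0.26, 0.21 to 0.31) and PROM1 at 18.8 and 26.0 CPM (0.46, 0.30 to 0.63). With the shares of the classes held fixed, the log2 ratio of PROM1 was 0.046 and that of VCAM1 −0.15, so neither kept its size once the libraries were given the same makeup.

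Within classes, 51 pairs of a gene and a class had enough UMIs. The perfused level was called higher in 2 pairs, both of DCDC2, and lower in 5 pairs, while 44 were not called. By class, 1.71% (LOH) to 12.1% (CYCLING) of all tested genes were called higher. The share called lower ran from 5.36% (cluster 17) to 13.0% (PT and PC). Neither count of pairs stood out from these shares. Fewer cells of a kind within a class and less RNA per cell cannot be told apart in these sums. The median log2 ratio of all tested genes lay between −0.14 and −0.00 in the EC, PT, PC, LOH, STROMA and cluster 13 nuclei, so a ratio near 0 is close to the background of its class.

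**Figure D2:**
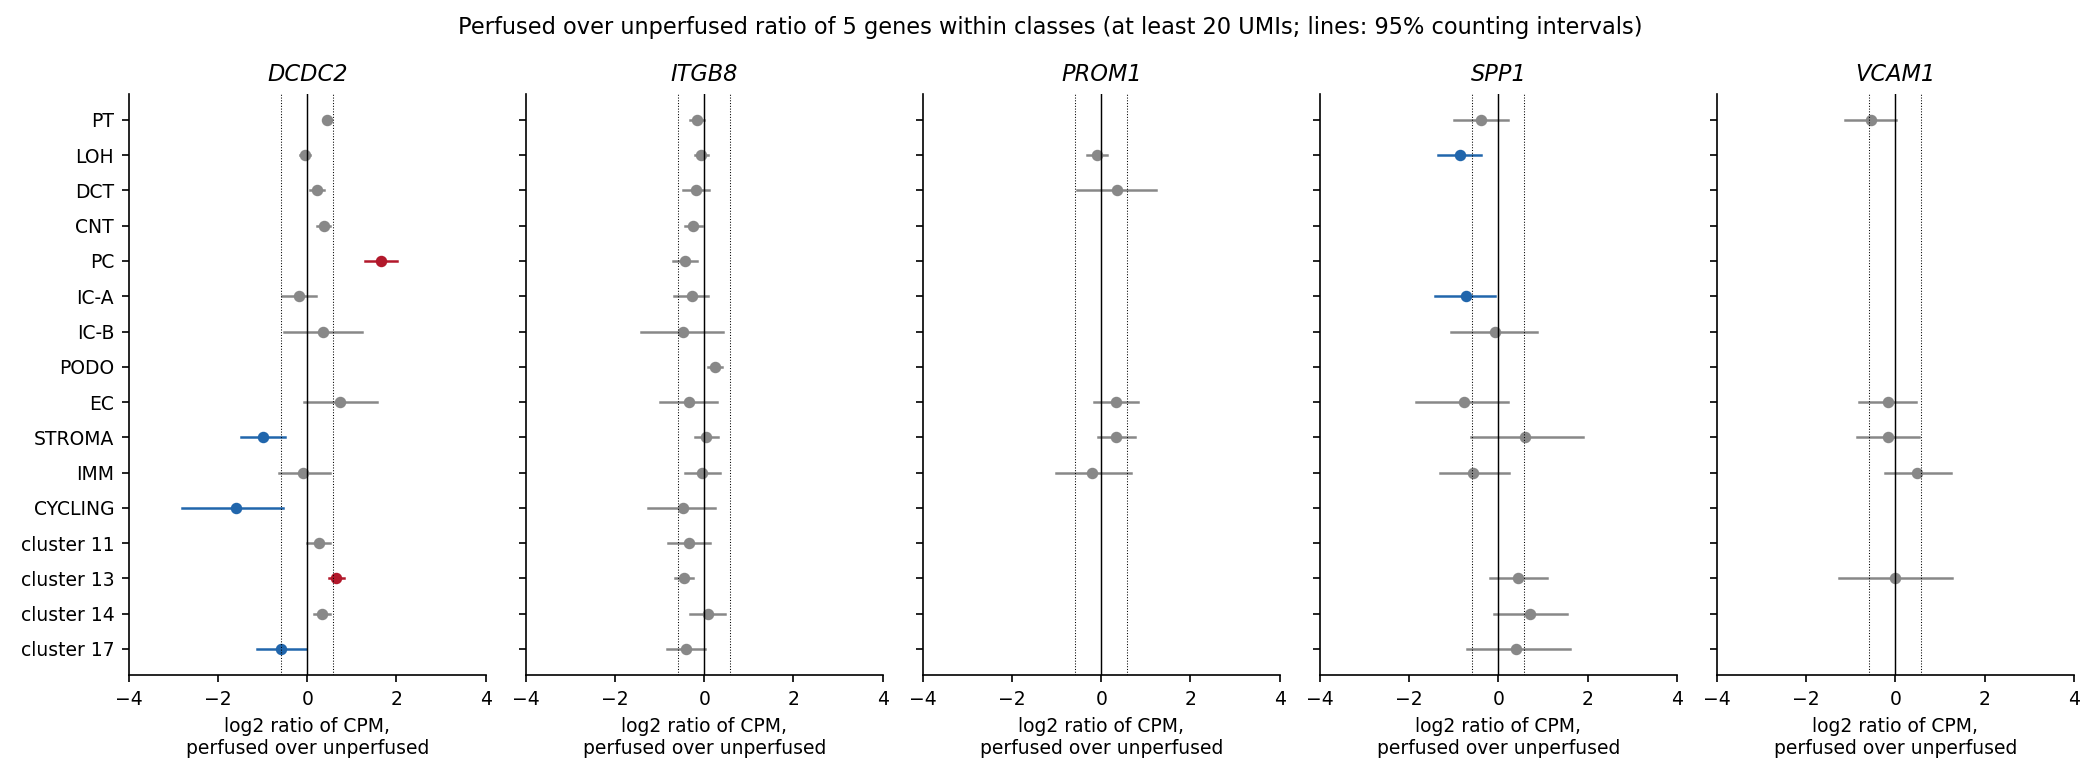
Log2 ratio of CPM, perfused over unperfused (x axis), for 5 genes in each class with at least 20 UMIs, with 95% counting intervals as lines. DCDC2 in PC stands far to the right at 1.65, and most other points lie near 0.

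The largest called ratio of a member within a class was that of DCDC2 in the principal cells. These are the collecting duct cells that take up water and sodium under hormonal control. The unperfused principal cells held 82 DCDC2 UMIs, 111 CPM (88.3 to 138), and the perfused ones 285 UMIs, 348 CPM (309 to 391). The log2 ratio was 1.65 (1.29 to 2.02), called higher where 6.04% of all genes in the class were called higher. DCDC2 was detected in 52 of 176 unperfused nuclei (29.5%) and in 100 of 151 perfused nuclei (66.2%). Other named tubule classes also expressed the gene. Its log2 ratio was 0.44 in PT, 0.37 (0.23 to 0.51) in CNT and 0.21 (0.05 to 0.37) in DCT. It was 0.36 in IC-B, −0.05 in LOH and −0.19 in IC-A, with intervals that held 0. None of these was called.

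The higher DCDC2 level in principal cells was spread over many nuclei rather than held by a few. The richest unperfused nucleus carried 10 UMIs and the richest perfused one 11. Nuclei with at least 3 DCDC2 UMIs numbered 4 before and 43 after the start of perfusion, holding 21 and 203 UMIs. Perfused principal cells were also sequenced more deeply, with a median of 5383 against 3757.5 UMIs. With every nucleus thinned to 1000 UMIs, the share with a DCDC2 UMI was 7.95% (4.42 to 13.0) before and 20.7% (14.5 to 28.0) after perfusion began. Over 12 other settings the log2 ratio ranged from 1.55 to 1.81 and passed 1.5-fold in each. It was called in every setting with a counting interval, which the subtraction of free RNA did not give.

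**Figure D3:**
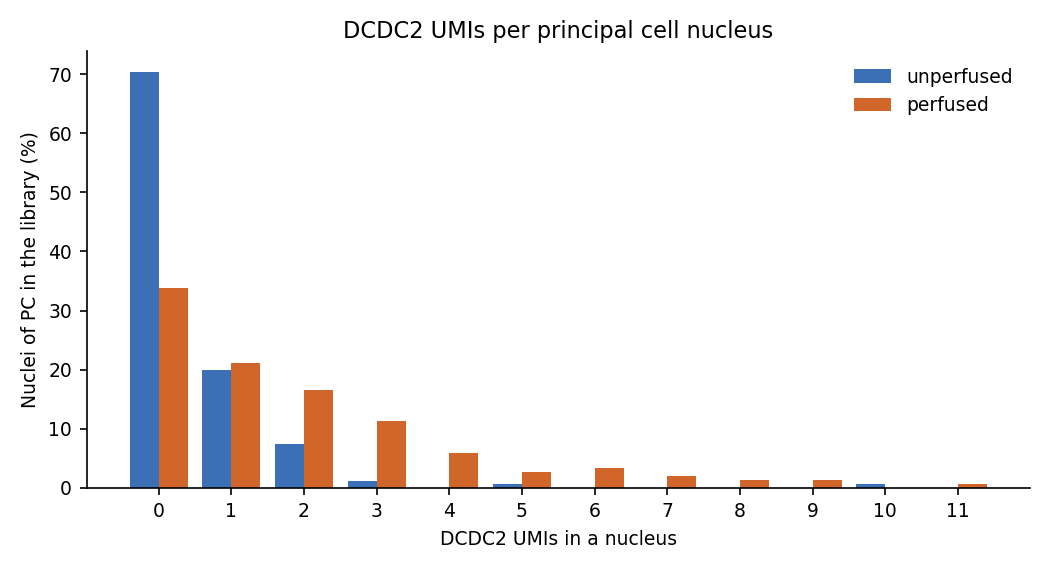
Percentage of principal cell nuclei (y axis) by the number of DCDC2 UMIs in the nucleus (x axis), unperfused and perfused. The unperfused bars are highest at 0 UMIs, and the perfused ones extend over 43 nuclei with 3 UMIs or more.

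Of the 7 principal cell markers, 1 was called between the libraries and 6 were not. AQP2, the vasopressin-regulated water channel, measured 990 CPM unperfused and 993 CPM perfused (log2 ratio 0.00, −0.14 to 0.15). AQP3, the water channel of the basolateral side, was at 177 and 166 CPM. The epithelial sodium channel subunits were at 562 and 667 CPM for SCNN1B and at 963 and 1125 CPM for SCNN1G. None of these 4 genes was called. AVPR2, the vasopressin receptor, was called lower, from 37.9 to 14.7 CPM on 28 and 12 UMIs (−1.37, −2.48 to −0.35), where 13.0% of all genes in the class were called lower. Among perfused principal cells, AQP2 was at 943 CPM in the 51 nuclei without a DCDC2 UMI. It was at 1021 CPM in the 57 nuclei with 1 or 2 and 1005 CPM in the 43 nuclei with at least 3. Other markers were not level across the same nuclei. SCNN1G was at 1373 CPM (1230 to 1529) without a DCDC2 UMI and 1031 CPM (915 to 1157) with at least 3, and FXYD4, a regulator of the sodium pump, at 1150 and 901 CPM. GATA3, a transcription factor of the collecting duct, was at 219 and 371 CPM.

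Some listed genes of repair were also higher in perfused principal cells. Of the maladaptive repair list, 2 of 4 tested genes were called higher, where 6.04% of all genes were. TPM1, an actin-binding tropomyosin, rose from 190 to 486 CPM (1.36, 1.08 to 1.65), and BICC1, an RNA-binding protein whose loss gives renal cysts, rose from 1825 to 3787 CPM (1.05, 0.96 to 1.15). KRT8, the simple-epithelium keratin, rose from 32.5 to 79.4 CPM (1.29). These calls were not limited to principal cells. TPM1 was also called higher in LOH, DCT, CNT and IMM, and BICC1 in EC. KRT8 was called higher in CNT and lower in DCT. Of 6 developmental factors tested, PAX2 rose from 375 to 567 CPM (0.60) and LHX1 was lower (−1.59). BICC1 was at 3487 CPM in perfused nuclei without DCDC2 UMIs and 4083 CPM in those with at least 3, so its higher level was not limited to the DCDC2-rich nuclei. TPM1 was at 393 and 609 CPM in the same nuclei. KRT8 went the other way, at 145 CPM (101 to 201) without a DCDC2 UMI, 33.4 CPM with 1 or 2 and 72.1 CPM with at least 3.

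No tested secreted or surface injury marker was called higher in the principal cells, where 6.04% of all genes were called higher and 13.0% lower. Of the 12 listed markers, 10 were in the files and 5 had enough UMIs in this class. LCN2 had too few UMIs there to be tested. Of 5 tested secreted and surface injury markers, 0 were called higher and 1 lower. That gene was CLU, the stress chaperone clusterin, which fell from 27.1 to 9.77 CPM (−1.47). Of 6 integrin partners and 6 NF-kB genes tested, 0 were called in either direction. Counts this small cannot be set apart from the shares over all genes. Proximal tubule function genes, which principal cells do not make, were called lower in 5 of 9 and higher in 0, and the share of UMIs assigned to free RNA was 3.4% and 3.6% in the 2 libraries. With free RNA subtracted, DCDC2 in principal cells was at 102.8 CPM unperfused and 337.9 CPM perfused, beside 111 and 348 CPM without the subtraction. Any other link of the proximal tubule genes to the DCDC2 result was not tested.

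DCDC2 was found along the whole tubule, with its highest levels in unnamed clusters and the distal convoluted and connecting tubules. PT, the largest tubule class, held 31.3% of its UMIs, a share not set against that of all genes. Over both libraries its level ran from cluster 14 at 1575 CPM through cluster 13 at 987 CPM, DCT at 497 CPM, CNT at 440 CPM, cluster 11 at 417 CPM and cluster 17 at 295 CPM. The counting intervals of CNT and cluster 11 overlapped. LOH had 287 CPM unperfused and 278 CPM perfused, and PT at 201 and 273 CPM (0.44, 0.35 to 0.53, short of the 1.5-fold limit). The 2 PT clusters moved alike, from 124 to 168 CPM and from 365 to 508 CPM. IC-A was at 108 and 94.4 CPM, IMM at 50.9 and 48.0 CPM and IC-B at 37.1 and 47.7 CPM. EC, which should lack the gene, stood at 9.54 and 16.0 CPM, and podocytes held 2 and 1 UMIs.

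**Figure D4:**
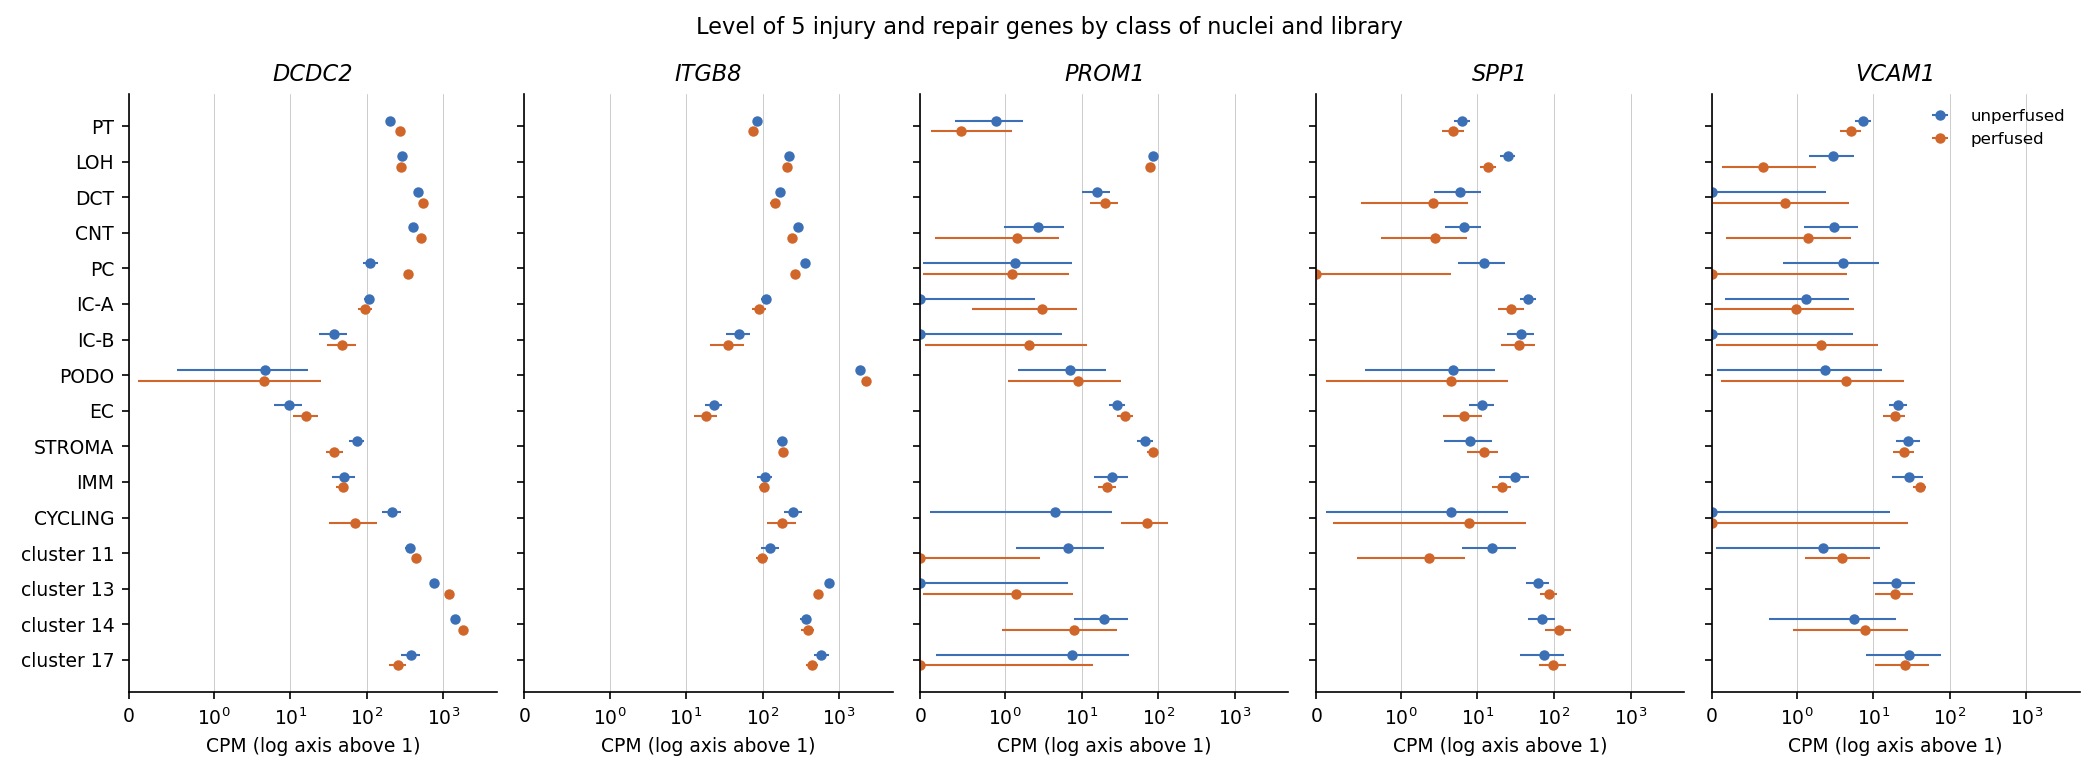
CPM (x axis, logarithmic above 1) of 5 genes in each class of nuclei for the unperfused and the perfused library, with 95% counting intervals. ITGB8 peaks in PODO at 1879 and 2218 CPM, and DCDC2 in cluster 14 at 1424 and 1789 CPM.

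The second called rise was that of DCDC2 in cluster 13, from 417 to 844 UMIs and from 746 to 1175 CPM (0.65, 0.48 to 0.83), where 4.90% of all genes were called higher. It was less firm than the principal cell value. A single perfused nucleus held 55 UMIs, and without the richest nuclei the log2 ratio was 0.61. With thinning, the share of nuclei with a UMI was 49.5% and 49.0% and the log2 ratio of the summed counts 0.17, which was not called. Nor was it called at resolution 0.3, at 0.44. The median nucleus of this cluster held 4317 UMIs unperfused and 5981.5 UMIs perfused.

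DCDC2 was called lower in 3 classes, each on few UMIs. In STROMA it went from 74.4 to 37.6 CPM on 83 and 62 UMIs (−0.98, −1.48 to −0.49), where 10.6% of all genes were called lower. Proximal tubule function genes moved with it, with 10 of 12 lower in STROMA and a median log2 ratio of −1.22, and 25.3% of the unperfused and 11.0% of the perfused UMIs of the class were assigned to free RNA. With those UMIs removed, DCDC2 in STROMA was at 13.7 and 6.77 CPM. Without nuclei that carried markers of another lineage the log2 ratio was −0.22, and the call was lost in that and 4 more of the 12 other settings.

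In CYCLING, 47 UMIs from 15 nuclei stood against 9 UMIs from 3 nuclei, 212 and 70.4 CPM, a log2 ratio of −1.59. With thinned nuclei the ratio was 0.34, of the opposite sign and not called. There 10.7% of all genes were called lower, and 31.6% and 18.6% of the UMIs were assigned to free RNA. That share is an upper limit. CYCLING was named by division and not by lineage, so transcripts of its own tubule or endothelial nuclei would be counted in it. In cluster 17, DCDC2 went from 379 to 253 CPM (−0.59, −1.13 to −0.03) on 51 and 67 UMIs, where 5.36% of all genes were called lower. The cluster 17 call was lost in 6 of the 10 other settings that gave a value.

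ITGB8 had its highest level in podocytes, which held 14.1% of its UMIs over both libraries. Named tubule classes held 61.2% of its unperfused and 57.5% of its perfused UMIs. In podocytes the level was high in nearly every nucleus. ITGB8 was detected in 86 of 89 unperfused podocyte nuclei (96.6%) and in 30 of 30 perfused ones (100%), at 1879 and 2218 CPM (0.24). Its partner ITGAV, the alpha-v subunit, was at 1766 and 2151 CPM in the same nuclei. Thinned to 1000 UMIs, 85.4% and 86.7% of podocyte nuclei still held an ITGB8 UMI. Podocytes numbered 89 and 30 nuclei, so the perfused value rests on few of them.

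After podocytes at 1996 CPM over both libraries, the ITGB8 order ran through cluster 13 at 626 CPM, cluster 17 at 490 CPM, cluster 14 at 374 CPM, PC at 311 CPM and CNT at 270 CPM. From cluster 17 to CNT the counting intervals of neighbours in this order overlapped. Below them lay LOH at 221 and 211 CPM, STROMA at 178 and 184 CPM, DCT at 168 and 147 CPM and IC-A at 110 and 90.5 CPM. PT was low, at 83.7 and 74.6 CPM, and EC lower still at 22.9 and 18.0 CPM. No class had a called change. The point estimates in PC, from 360 to 266 CPM (−0.44, −0.70 to −0.17), and in cluster 13, from 739 to 537 CPM (−0.46), lay below the 1.5-fold limit.

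PROM1 marked the loop of Henle and a stromal cluster, not the proximal tubule. In LOH it reached 84.4 CPM unperfused and 78.7 CPM perfused, in 22.3% and 26.0% of nuclei. In PT it was found in 9 of 1778 and 4 of 1201 nuclei, at 0.889 and 0.484 CPM, and cluster 13 held 0 and 1 UMIs. PROM1 was thus near absent from cluster 13, in which DCDC2 and ITGB8 were high.

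Cluster 12, a cluster within STROMA that is not among the 51 pairs, held 31 of the 75 unperfused and 91 of the 140 perfused stromal PROM1 UMIs. The level there rose from 117 to 199 CPM, over 20 unperfused and 41 perfused nuclei (0.76, 0.16 to 1.40), where 6.51% of all genes were called higher. In the perfused library 12 nuclei held 51 of the 91 UMIs, and shares of thinned nuclei were 12.5% and 17.0%. The other stromal cluster was at 51.7 and 41.1 CPM, and STROMA as a whole, at 67.2 and 84.9 CPM, was not called. EC, chosen as the class that should lack the gene, did not lack it: its 29.0 and 36.6 CPM were 27.7 and 34.9 CPM after free RNA was subtracted, while PT went to 0. IMM was at 24.7 and 21.5 CPM and DCT at 15.7 and 19.9 CPM. In thinned nuclei the EC shares were 2.66% and 2.91%, so EC gave no background level for PROM1.

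SPP1 was highest in 3 of the 4 unnamed clusters, on few nuclei. It was at 74.3 and 98.0 CPM in cluster 17, at 69.7 and 114 CPM in cluster 14 and at 62.6 and 84.9 CPM in cluster 13, the unperfused value first, while cluster 11 held 7 and 3 UMIs. In the perfused library 1 nucleus of cluster 17 held 16 of its 26 UMIs, and 4 nuclei of cluster 14 held 23 of its 29. In cluster 13 it was detected in 21 of 125 nuclei (16.8%) and 27 of 112 (24.1%), and thinned shares were 5.50% and 10.8%. Lower levels were found in IC-B, at 37.1 and 35.2 CPM, and IMM, at 30.6 and 20.7 CPM. PT, at 6.32 and 4.84 CPM, had shares of thinned nuclei of 0.62% (0.31 to 1.11) and 0.68% (0.29 to 1.33), beside 1.21% (0.68 to 1.99) and 0.66% (0.21 to 1.53) in EC, the class taken to lack the gene. The intervals of PT and EC overlapped in both libraries. After free RNA was subtracted, EC kept 10.4 and 5.87 CPM and PT kept 5.45 and 4.26 CPM. EC thus gave no background level for SPP1, and whether PT nuclei made SPP1 was not decided. Principal cells held 9 and 0 UMIs.

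SPP1 was called lower in LOH and IC-A, and in both a few nuclei carried much of it. In LOH it went from 25.0 to 13.7 CPM on 83 and 68 UMIs (−0.87, −1.35 to −0.39), where 11.0% of all genes were called lower. There, 7 unperfused nuclei held 40 of the 83 UMIs and 6 perfused nuclei held 49 of the 68, and thinning gave −0.18, which was not called. In IC-A, the acid-secreting cells, it went from 46.1 to 27.8 CPM on 69 and 28 UMIs (−0.73, −1.42 to −0.07), where 9.53% of all genes were called lower. In IC-A 10 and 3 nuclei held 50 and 24 of those UMIs, and the IC-A value was not called with thinning (−0.51), with doublets kept (−0.48) or without nuclei carrying markers of another lineage (−0.32). Over all nuclei, 22 of 6389 unperfused nuclei held 29.0% of the SPP1 UMIs and 25 of 5421 perfused nuclei held 43.9%.

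In cluster 13 and LOH, nuclei with an SPP1 UMI carried more DCDC2. In cluster 13 DCDC2 was at 1169 CPM in SPP1-positive and 644 CPM in SPP1-negative unperfused nuclei, and at 1780 and 886 CPM in perfused ones. In LOH the values were 481 and 277 CPM unperfused and 607 and 269 CPM perfused. With nuclei thinned to 1000 UMIs the link was not seen in every library. SPP1 was found in 5.56% of DCDC2-positive and 5.45% of DCDC2-negative unperfused nuclei of cluster 13, and in 18.0% (8.58 to 31.4) and 3.85% (0.47 to 13.2) of perfused ones. In unperfused PT the shares were 0.34% and 0.68%.

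Among the named classes, VCAM1 was highest in IMM, STROMA and EC, and IMM also carried stromal markers. IMM had 29.1 CPM unperfused and 40.6 CPM perfused (0.48, −0.22 to 1.25), STROMA at 28.7 and 25.5 CPM and EC at 21.4 and 19.1 CPM. Cluster 13 reached a similar 19.7 and 19.5 CPM, but on 11 and 14 UMIs. IC-A, taken as the class without the gene, was at 1.34 and 0.994 CPM.

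In PT, where VCAM1 is used as a mark of failed repair, it was seen in 64 of 1778 unperfused and 39 of 1201 perfused nuclei, at 7.41 and 5.09 CPM. The log2 ratio was −0.54 (−1.12 to 0.02), and thinned shares were 0.51% in both libraries. No class had a called VCAM1 change. In endothelium, VCAM1-positive nuclei had a higher summed level of NF-kB genes, 1039 against 576 CPM before and 916 against 539 CPM after perfusion began.

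SOX9 and LCN2 were too rare to compare. SOX9 had 3 unperfused and 4 perfused UMIs among all nuclei: 3 and 1 in LOH, 0 and 1 in IC-A, and 0 and 2 in cluster 14. LCN2 had 13 unperfused UMIs and 1 perfused UMI, each in a nucleus of its own, with 4 and 1 in principal cells, 3 and 0 in EC and 2 and 0 in STROMA. Of the 13 unperfused LCN2 UMIs, 7 lay in named tubule and 6 elsewhere. No induction of either gene was detectable at this depth. LRP2, the megalin receptor that takes up filtered lipocalin, was at 3600 and 3783 CPM in PT (0.07).

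In PT as a class the injury programme was not called up as a whole. Of 8 tested secreted and surface injury markers, 1 was higher and 3 lower, with a median log2 ratio of −0.56, against 1.95% of all PT genes called higher and 13.0% lower. ANXA1, annexin A1, rose from 2.27 to 6.90 CPM (1.60). CLU fell from 8.20 to 3.75 CPM (−1.13), CCN2, a matricellular growth factor, fell to 5.57 CPM (−1.10), and CP, ceruloplasmin, from 26.1 to 15.9 CPM (−0.72). Of 8 maladaptive repair genes, 0 were higher and 1, IL34, was lower. Of 8 TGF-beta genes, 2 were higher, among them LTBP1, a latent TGF-beta binding protein, from 51.8 to 79.7 CPM (0.62). None of the 12 proximal tubule function genes was called in PT.

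Most of the tested members were above their PT level in 3 of the 4 unnamed clusters, in both libraries. A level above PT was not particular to these clusters. Over both libraries PT ranked 13 of 16 groups for SPP1 and 14 for ITGB8. LOH was also above PT in SPP1 (18.3 against 5.66 CPM), ITGB8 (215 against 79.6 CPM) and DCDC2 (282 against 233 CPM). In VCAM1 it was below PT (1.57 against 6.37 CPM). Cluster 13 (125 and 112 nuclei) led with AGMO, RIMS2 and MEGF6, and 4 of 4 tested members were higher than in PT in both libraries, against 13.1% of all genes. SPP1 was 9.9-fold and 17.5-fold higher, ITGB8 8.83-fold and 7.20-fold, DCDC2 3.71-fold and 4.31-fold, and VCAM1 2.66-fold and 3.83-fold, the unperfused library first. These are descriptions, since the cluster was compared after its values had been seen, and the list genes below also took part in the clustering.

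Of the maladaptive repair list, 8 of 8 tested genes were higher in cluster 13 than in PT. CREB5, a transcription factor, was at 274 and 166 CPM against 3.66 and 4.36 CPM in PT, and RELB, an NF-kB subunit, at 73.4 and 36.2 CPM against 3.95 and 4.0 CPM. TPM1 was 4.91-fold and 5.07-fold higher, and ITGB6, an epithelial integrin, 8.39-fold and 22.4-fold. Of the injury markers 4 of 7 were higher, among them CLU at 26.6-fold and 34.9-fold, and of the NF-kB genes 5 of 8, among them TNFAIP3, the feedback inhibitor A20.

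Most proximal tubule function genes were lower in cluster 13 than in PT but still detected. Cluster 13 had no name, and whether PT was a matching baseline for it was not tested. Of 12 genes 9 were lower and 0 higher, against 6.47% of all genes called lower. SLC5A12, a lactate transporter, was at 331 and 316 CPM against 2215 and 2055 CPM in PT, and HNF4A, the factor of mature proximal tubule, at 184 and 171 CPM against 563 and 536 CPM. LRP2 was at 2528 and 2685 CPM against 3600 and 3783 CPM and was not called. Between the libraries, within cluster 13, 0 of the 8 maladaptive genes were called higher and 2 lower (CREB5, −0.72, and RELB, −1.02), against 6.09% of all genes in the cluster.

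**Figure D5:**
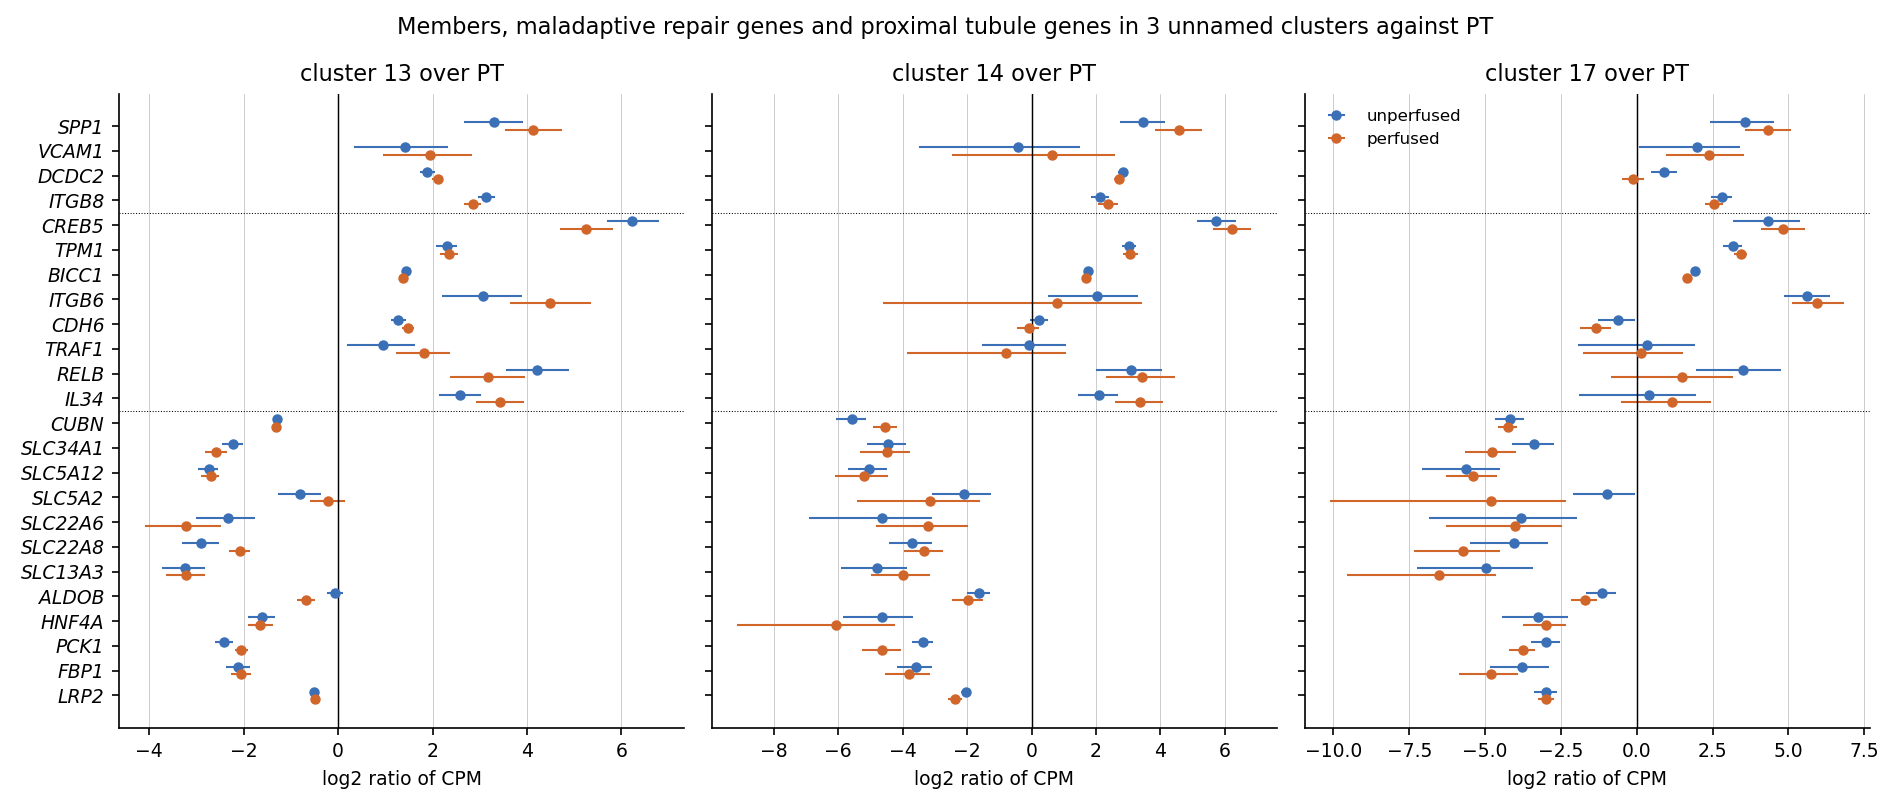
Log2 ratio of CPM, cluster over PT (x axis), for members, maladaptive repair genes and proximal tubule genes in clusters 13, 14 and 17, 1 point per library with 95% counting intervals. SPP1 and ITGB8 lie right of 0 in all 3 clusters, and SLC5A12 lies left of it.

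Clusters 14 and 17 shared part of that pattern, but proximal tubule function was lower throughout. In each of them 12 of 12 proximal tubule function genes, LRP2 included, were lower than in PT and 0 were higher. Of all genes, 1336 of 12214 were lower than in PT in cluster 14 and 810 of 12150 in cluster 17. Secreted and surface injury markers were higher than in PT for 7 of 7 tested in cluster 14 and 4 of 7 in cluster 17. Maladaptive repair genes were higher for 5 of 8 and 4 of 8, with 1 lower in cluster 17. For cluster 17 the best marker list was that of the thin limb, with 3 of 8 markers counted, which fell short of a name. Which cell types clusters 14 and 17 held, and whether PT was a matching baseline for them, was not tested. In cluster 14 (145 and 82 nuclei), 3 of 4 members were higher than in PT, against 14.4% of all genes: SPP1 11.0-fold and 23.6-fold, DCDC2 7.08-fold and 6.56-fold, and ITGB8 4.36-fold and 5.19-fold. Cluster 14 held 2 of 4 parietal epithelial markers, ALDH1A2 at 374 and 391 CPM and CLDN1 at 170 and 182 CPM, which fell short of a name. In cluster 17 (59 and 87 nuclei), led by GALNT14 and EPHA7, 3 of 4 members were higher, against 11.2% of all genes: SPP1 11.8-fold and 20.2-fold, ITGB8 7.02-fold and 5.91-fold, and VCAM1 4.01-fold and 5.19-fold, the last on 4 and 7 UMIs. Cluster 11 (72 and 176 nuclei) also had lower proximal tubule function genes, with 7 of 12 lower than in PT and 0 higher. Over all genes, 672 of 12324 were lower there. In cluster 11, 1 of 4 members, DCDC2, was higher than in PT, against 7.83% of all genes. So were 0 of 7 injury markers and 2 of 8 maladaptive repair genes.

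Few nuclei held several of the genes. With nuclei thinned to 1000 UMIs, 3.99% of unperfused and 3.83% of perfused nuclei held a UMI of at least 2 members, and none held more than 3. The share was 20.2% and 28.4% in cluster 13, 19.1% and 31.7% in cluster 14, 17.9% and 5.75% in cluster 17, 1.59% and 1.19% in PT and 0.403% and 0.132% in EC. In CNT, ITGB8 was found in 27.3% (20.4 to 35.0) of DCDC2-positive and 21.2% (17.1 to 25.8) of DCDC2-negative unperfused nuclei, and in 32.4% (22.0 to 44.3) and 11.6% (6.88 to 17.9) of perfused ones. In PT the shares were 8.08% and 7.76% unperfused and 4.53% and 6.31% perfused, so DCDC2 and ITGB8 did not accompany each other in every class.

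The genes most alike in pattern were found by Pearson correlation of log2(CPM + 5) over 40 points, the 20 clusters in both libraries, among 11031 genes. The points share libraries and depth, and the values are descriptions. SPP1 was most like CLU (0.853), FAM102B (0.745) and ROPN1L (0.726). VCAM1 was most like TGFB2 (0.837), FTL (0.794) and SOD3 (0.759). DCDC2 was most like PAX2 (0.916), FHOD3 (0.916) and WWC1 (0.897). PROM1 was most like CDCA7L (0.831), WFDC1 (0.814) and ST8SIA1 (0.813), and ITGB8 most like CTDSPL (0.843), PTPN13 (0.835) and C11orf49 (0.831). DCDC2 and ITGB8 themselves correlated at only 0.318.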

How the data were processed

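Per the labels, nuclei of 1 unperfused and 1 perfused pig renal cortex sample were processed with 10x Chromium 3' v3.1 chemistry and Cell Ranger 5.0.1. The reference was Ensembl with introns counted. The authors deposited UMI counts per gene for 7179 and 6205 barcodes (34415254 and 35525592 UMIs). Of these barcodes, 79 and 192 had under 500 genes. Nuclei needed 500 to 6000 genes and under 7% mitochondrial UMIs, and Scrublet (scanpy 1.11.5) doublets were removed (641 and 489). Seurat 5.3.0 integrated the libraries (2000 variable genes without the members, 30 anchor dimensions, 15 components, resolution 0.5). A cluster took the name of the marker list with the highest mean log2 fold where that mean passed 1, at least 3 markers passed a log2 fold of 1 and reached 10% of nuclei, and no other list had more markers among its 10 leading genes. Summed counts gave CPM with exact Poisson intervals and ratios with exact conditional binomial intervals (95%), which cover counting error alone; for ratios, 0 counts were replaced by 3. The share of UMIs assigned to free RNA came from 3 pairs of genes: LRP2 and CUBN, SLC12A1 and UMOD, FLT1 and PTPRB. It was the lowest ratio, over the pairs, of their share in a class to that in the library. It is an upper limit, and empty droplets were not used. Ratios were tested on simulated data. No p-values were computed. Scalings by edgeR 4.0.16 and DESeq2 1.42.0, thinning to 1000 UMIs, and other filters and resolutions were tried. Named genes are the members, list genes, the 3 genes most like each member and leading genes of clusters. Members and lists were chosen with earlier results of these data known, and the naming thresholds and the comparison of clusters with PT were chosen after values were seen. HAVCR1, KRT19, CD24, SOX4 and other list genes missing from the files used were not analysed here.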

Additional observations from a re-analysis of the deposited data

Results flagged for a closer look

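The perfused over unperfused log2 ratio of DCDC2 had opposite directions in different classes. It was called higher in PC (1.65) and in cluster 13 (0.65), and lower in STROMA (−0.98), CYCLING (−1.59) and cluster 17 (−0.59). With 1 library per condition the difference between the classes was not tested.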

How the results depend on the processing

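No paired analysis was possible because each condition had 1 library. Of the log2 ratios recomputed under other settings, 609 moved by less than their counting interval, 52 moved by more and 1 turned: DCDC2 in CYCLING was 0.34 with thinned nuclei. TMM scaling moved all genes by 0.10 over all nuclei. Over all nuclei, thinning gave 0.031 for SPP1, 0.12 for DCDC2 and −0.23 for ITGB8. Fixed class shares gave −0.15 for VCAM1 and 0.046 for PROM1. DCDC2 was 0.36 with TMM, 0.36 with DESeq2 and 0.32 without nuclei carrying markers of another lineage, and ITGB8 was −0.063 and −0.069 with TMM and DESeq2. The count of pairs called lower, 5 as reported, was 3 at resolution 0.3, 3 without nuclei of another lineage, 2 with thinning and 3 with at least 100 UMIs. The cause was not tested. Depth limits SOX9 and LCN2, with 7 and 14 UMIs.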
